A study of Mus musculus with 96 samples.

Results

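Single embryonic stem cells from the mouse line E14 were divided by whether they carried transcripts of T, which encodes Brachyury, or of Mixl1. A cell counted as expressing when either gene reached 10 CPM. CPM is a gene's count for every 1000000 counts of genes in that cell. The cells were thus chosen by their own measured levels of T and Mixl1. By this rule 34 of 61 cells were T or Mixl1 expressing cells, and the other 27 cells had both genes below 10 CPM. All 61 cells came from serum/LIF culture, a medium with serum and leukaemia inhibitory factor. They are labelled wild-type on a C57BL/6 background, and had no treatment that the labels name. The series also lists 16 wells of 2i cells, 4 wells with no cell and 15 more serum/LIF wells, which are not analysed here. RNA was parted from the DNA of the same cell by G&T-seq, and libraries were prepared from its cDNA by Nextera XT. No separate cultures or differentiation steps are named, and the number of cultures is not given. Each p-value below therefore measures the spread between single cells of 1 line and not between cultures.

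Brachyury is the founding T-box transcription factor and is switched on in the primitive streak, where epiblast cells become mesoderm and endoderm. Mixl1 is a paired-type homeobox factor of the same cells. In the mouse embryo both lie downstream of Wnt3 and Nodal signalling, and BMP and FGF signals shape the same region. Embryonic stem cells in serum/LIF are known to be a mixture, in which some cells hold the naive state of the early epiblast and others have moved towards the state from which germ layers arise.

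All 34 expressing cells passed the rule through T. T lies on the plus strand of chromosome 17 (8434423 to 8442496, GRCm38), and no other annotated gene overlaps it. In the 34 expressing cells T ranged from 25.4 CPM in well F04 over a median of 92.6 to 806 CPM in well D04, and 16 of them reached 100 CPM. In the 27 other cells the range was 0 to 5.11 CPM, with 21 cells at 0 and the highest value in well B04. Since these values chose the cells, they are a description with no test. The gap between 5.11 and 25.4 CPM held no cell, so thresholds of 20 CPM and of T alone give the same division. The 250 bases before the RefSeq start of T (GRCm38.p6, chr17:8434173-8434422, plus strand) are shown because T defines the cells and Wnt signalling acts on genes through TCF/LEF factors. They hold 1 match to the TCF/LEF form CTTTGAA, in capitals and on the other strand, beginning 235 bases before the start. Of 32851 such windows, 4.46% hold CTTTGAA on either strand. No CTTTGAT (3.21% of windows) and no T-box core AGGTGTGA (1.12%) is in these letters.
T: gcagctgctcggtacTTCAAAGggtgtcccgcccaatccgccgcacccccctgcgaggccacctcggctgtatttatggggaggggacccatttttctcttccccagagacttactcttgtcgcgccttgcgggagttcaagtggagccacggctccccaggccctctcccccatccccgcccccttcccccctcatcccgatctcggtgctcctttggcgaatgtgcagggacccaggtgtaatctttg

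Mixl1 was rarer and never reached the threshold without T. It lies on the minus strand of chromosome 1 (180693043 to 180697034), also with no overlapping gene. Among the 34 expressing cells 10 had at least 10 CPM of Mixl1, 4 had fewer and 20 had no Mixl1 read, so the median was 0 CPM and the highest value 2882 CPM. The 27 other cells had 0 to 2.33 CPM, with 3 cells above 0. The cell in well D07 carried 77.2% of all Mixl1 CPM. Without it, 43 genes called different between the sets (below) became 27. Among genes named below, the edgeR calls of Fgf8, Gbp2, Erap1, Trim67, Slco5a1, Pdgfrl, Kit, Morc1, Manba, Stmn1, Zfp600 and Zfp981 ended without D07, at adjusted p-values of 0.0533 to 0.0684.

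**Figure D1:**
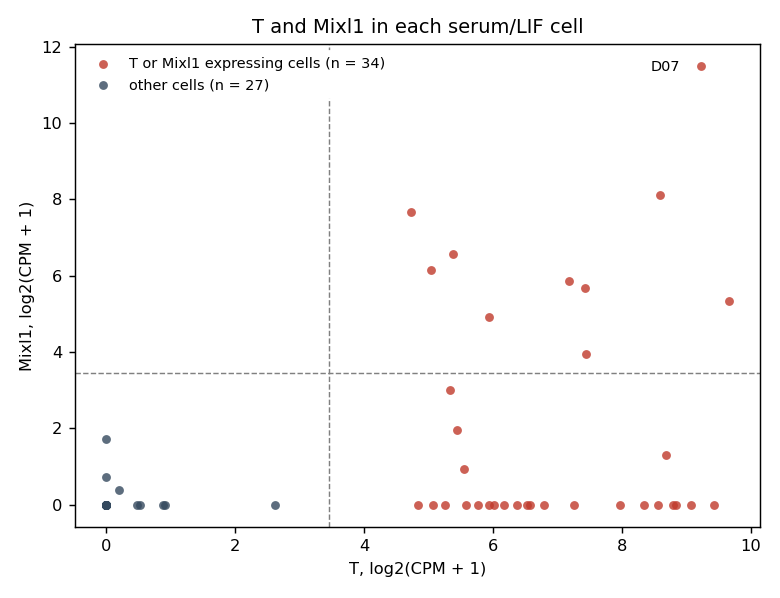
T (horizontal axis) against Mixl1 (vertical axis), both as log2(CPM + 1), for each of 34 expressing and 27 other cells; each point is a cell and dashed lines mark 10 CPM. No cell lies in the upper left, where Mixl1 would be present without T, and the highest Mixl1 value is well D07.

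Both sets carried transcripts of stem cell genes, at unlike levels for some markers. Pou5f1, the core pluripotency factor Oct4, was detected in all 34 expressing and all 27 other cells, with medians of 1087 CPM and 1264 CPM. Sall4 was likewise detected in every cell, and Sox2 in 29 expressing and 25 other cells. Nanog was detected in 28 expressing and 19 other cells. Zfp42 was detected in 19 expressing and 23 other cells, with medians of 0.355 CPM and 31.9 CPM. Dppa5a was detected in 33 expressing and 27 other cells, with medians of 414 CPM and 3970 CPM. Total counts per cell were 2417702 to 6787261 in expressing cells and 2892439 to 6597540 in other cells. Genes detected averaged 8336 ± 805 in expressing cells and 8362 ± 968 in other cells (SD; permutation test with 100000 resamples, two-sided, p adjusted over 5 measures = 0.915). Mitochondrial transcripts took 1.94 ± 0.623% of counts in expressing cells and 2.10 ± 0.972% in other cells (same test, adjusted p = 0.716). Expressing cells filled 18 wells of plate rows A to D and 16 of rows E to H, against 15 and 12 for other cells (Fisher's exact test, two-sided, p = 1). The share of counts from chromosome 14 differed, at 3.17 ± 0.205% in expressing cells and 2.84 ± 0.594% in other cells (same permutation test, p = 0.0036, adjusted p = 0.018). Of the other cells, 8 had a chromosome 14 share below that of every expressing cell.

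Differences were tested in 10866 genes that had 10 or more counts in 10 or more cells, without T and Mixl1. The main test was edgeR's quasi-likelihood test, in which each cell's fraction of detected genes was a covariate. At an adjusted p under 0.05 it called 43 genes, 0.396% of those tested, with 23 higher in expressing cells (0.212%) and 20 lower (0.184%). A second test, limma-trend on log2(CPM + 1), called 117 genes (1.08%), 64 higher (0.589%) and 53 lower (0.488%). Both tests called 24 genes, 9 higher and 15 lower, with the same direction in all 24. These are 55.8% of the edgeR calls and 20.5% of the limma-trend calls, so each gene below is given with both. On simulated counts edgeR made more false calls than its threshold allows and limma-trend did not. The 19 genes called by edgeR alone rest on 1 test and need caution. That simulation drew each gene independently and set changes only in widely detected genes, unlike many sparse genes here. It therefore does not rank the tests for sparse genes, and it does not show that the 93 genes called by limma-trend alone are firm. Of the 43 edgeR calls, 18 were made whichever single cell was left out. Leaving out 1 cell gave 24 edgeR calls without B09 or C05, 25 without B05, 27 without C07, D07 or F07, and 28 without C02, F01 or G01. Without the detection covariate edgeR called 12 genes, among them Gbp3, Isg15, Parp10, Tmem246, Tdrd12, Kit, Nr5a2, Platr20 and Mtf2; the other edgeR calls named below ended, several with changes nearer to 0 that are given beside them. Leaving out 1 cell gave 78 (C05) to 152 (G02) limma-trend calls, and 71 of the 117 genes were called each time. Fold changes from edgeR are log2 ratios of fitted counts, and those from limma-trend are differences of mean log2(CPM + 1). These scales differ, and either value can be the larger. Isg15 had 8.20 in edgeR and 1.75 in limma-trend, and Tapbp had 2.69 in edgeR and 4.74 in limma-trend.

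Of 30 mesendoderm genes other than T and Mixl1, 7 were frequent enough to be tested. In those 7, edgeR called 1 higher (Fgf8), limma-trend called 3 higher (Wnt3, Fgf8 and Fst), and neither called any lower. Over all 10866 tested genes edgeR called 0.212% higher and limma-trend 0.589% higher. All 7 edgeR log2 changes were above 0, with a median of 2.56 against 0.007 over all tested genes. A gene found mainly in 1 set passes the count filter through that set, so these numbers describe the 7 and not the list. Wnt3, the ligand needed for streak formation in the mouse, ranged from 0 over a median of 134 to 603 CPM in expressing cells and from 0 over 0.937 to 306 CPM in other cells. It was detected in 30 of 34 expressing cells, against 14 of 27 other cells, and the sets overlapped. Its limma-trend difference was 3.45 ± 0.70 (SE; adjusted p = 0.00303, and 0.00643 at most without any 1 cell), and edgeR gave 2.46 ± 0.85 (adjusted p = 0.342). The limma-trend call ended without the 9 cells of highest naive score (2.86, adjusted p = 0.327), with that score as a covariate (2.17, adjusted p = 0.680) and without the 8 cells of low chromosome 14 share (adjusted p = 0.126).

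Fgf8, a growth factor of the streak, was detected in 20 of 34 expressing cells and 5 of 27 other cells. Its values ran from 0 over 26.8 to 771 CPM in expressing cells and from 0 over 0 to 79.8 CPM in other cells. It was higher in expressing cells by 5.72 ± 1.40 log2 units in edgeR (SE; adjusted p = 0.0400), though this call was made in 33 of 61 fits without 1 cell and the adjusted p was 0.0792 without D04. limma-trend gave 3.45 ± 0.80 (adjusted p = 0.0134), called in all 61 such fits. Fst, the secreted activin antagonist follistatin, had medians of 43.8 CPM in expressing cells and 0 CPM in other cells, with limma-trend at 3.08 ± 0.81 (adjusted p = 0.0370; called in 41 of 61 fits without 1 cell) and edgeR at 2.56 ± 1.15 (adjusted p = 0.700).

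The remaining tested members did not pass either test. The transcription factor Cdx2 was detected in 15 of 34 expressing and 3 of 27 other cells (edgeR adjusted p = 0.0742, limma-trend adjusted p = 0.0748). Eomes, a T-box factor of early mesendoderm, was detected in 18 of 34 and 7 of 27 cells (edgeR adjusted p = 0.596, limma-trend adjusted p = 0.235). Sp8 was found in 20 of 34 and 5 of 27 cells, and Fgf17 in 21 of 34 and 11 of 27 cells, with limma-trend adjusted p-values of 0.358 and 0.303.

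The 23 untested members were found in few cells of either set and are given as counts only. Snai1, a repressor that acts as cells leave the epithelium, was detected in 8 expressing cells and 0 other cells. Nkx1-2 was detected in 6 expressing and 0 other cells, and Evx1 in 6 expressing and 4 other cells. Genes that mark later or more specialised states were near absent, with Mesp1 and Msgn1 each in 2 expressing and 0 other cells, and Gsc, Foxa2, Tbx6 and Cer1 each in 1 expressing and 0 other cells. Kdr, a receptor of blood and vessel progenitors, was detected in 0 expressing and 5 other cells. Apela and Foxf1 had no read in any cell.

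The pathways that act on T and Mixl1 in the embryo were described next, starting with Nodal. Of 19 tested Nodal pathway genes edgeR called 0 (3 had an unadjusted p under 0.05) and limma-trend called 2 higher, among them Lefty1, at a median edgeR log2 change of 0.23. Over all 10866 tested genes edgeR gave an unadjusted p under 0.05 for 640, and limma-trend called 0.589% higher. Lefty1, a secreted antagonist that Nodal itself induces, was detected in 30 of 34 expressing and 17 of 27 other cells. Expressing cells reached 3493 CPM with a median of 254, and other cells reached 676 CPM with a median of 0.396; some cells of each set were at 0. limma-trend gave 4.89 ± 0.91 (adjusted p = 0.00105) and edgeR 3.67 ± 1.05 (adjusted p = 0.143). Its relative Lefty2 had medians of 37.4 CPM in expressing and 1.70 CPM in other cells (limma-trend adjusted p = 0.404). Nodal itself had medians of 62.1 CPM and 12.5 CPM in expressing and other cells, and did not pass (limma-trend difference 1.29 ± 0.75, adjusted p = 0.512).

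Among 19 tested Wnt pathway genes edgeR called 0 (3 with an unadjusted p under 0.05) and limma-trend called 2 higher, at a median edgeR log2 change of 0.68. The shares over all tested genes were 640 of 10866 for an unadjusted p under 0.05 in edgeR and 0.589% for higher limma-trend calls. Fzd10, a Wnt receptor, was detected in 29 of 34 expressing and 13 of 27 other cells, with medians of 19.1 CPM and 0 CPM (limma-trend 2.42 ± 0.53, adjusted p = 0.00767; edgeR adjusted p = 0.691). Sp5, a zinc finger factor and direct Wnt target, had medians of 25.7 CPM in expressing and 0 CPM in other cells (limma-trend 1.97 ± 0.51, adjusted p = 0.0317; edgeR adjusted p = 0.750). Leaving out C05 took the limma-trend adjusted p of Sp5 to 0.0550. Axin2, a widely used Wnt feedback target, was detected in 23 of 34 and 14 of 27 cells and did not pass (limma-trend adjusted p = 0.614). The nuclear partners of beta-catenin did not pass either, with Lef1 at -0.14 ± 0.69 and Tcf7 at 1.00 ± 0.60 in limma-trend (adjusted p = 0.969 and 0.525).

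No gene of the BMP list (10 tested) or of the FGF and ERK list (20 tested) was called by either test. edgeR gave an unadjusted p under 0.05 for 2 BMP genes and 1 FGF gene, against 640 of all 10866 tested genes. The BMP targets Msx2 and Msx1 were detected in 13 and 12 of 34 expressing cells, against 3 and 3 of 27 other cells (edgeR adjusted p = 0.342 and 0.544). Dusp6, a phosphatase induced by ERK, had medians of 272 CPM in expressing and 69.7 CPM in other cells (limma-trend adjusted p = 0.0561; edgeR adjusted p = 0.999). Of 26 tested genes of epithelial-mesenchymal transition and adhesion, edgeR called 0 (0 with an unadjusted p under 0.05) and limma-trend 1, the tight junction gene Cldn7. Over all tested genes limma-trend called 0.589% higher. Cldn7 was detected in 32 of 34 expressing and 18 of 27 other cells, with a limma-trend difference of 2.88 ± 0.67 (adjusted p = 0.0141) against 0.79 ± 0.77 in edgeR (adjusted p = 0.999). Cdh1 had medians of 255 CPM and 238 CPM, Vim 10.2 CPM and 28.8 CPM, and Fn1 88.6 CPM and 71.03 CPM in expressing and other cells, and none of these passed (limma-trend adjusted p = 0.443, 0.981 and 0.944).

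**Figure D2:**
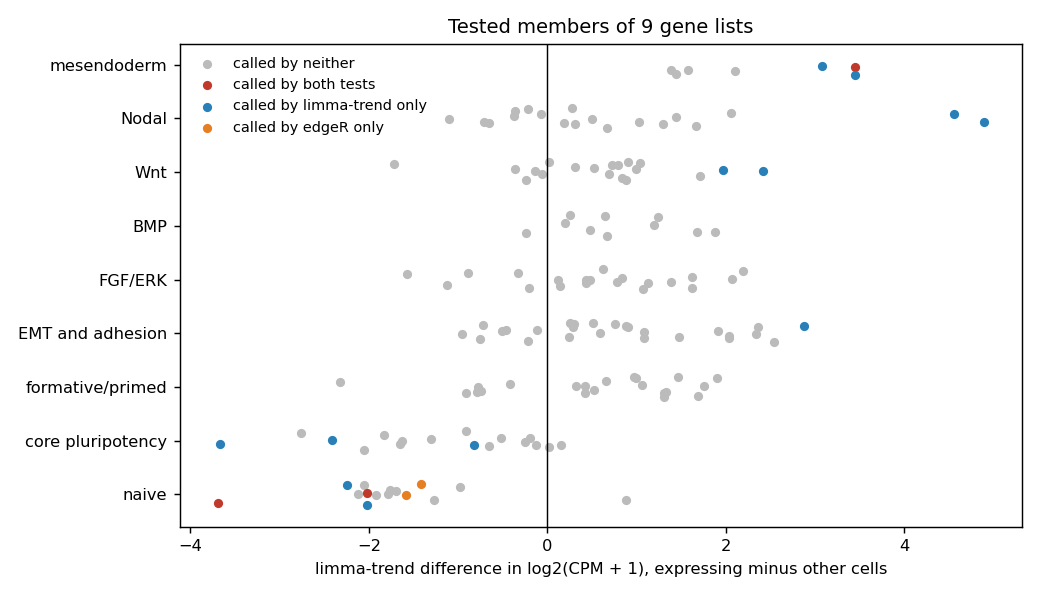
Difference in mean log2(CPM + 1) between expressing and other cells (horizontal axis, from limma-trend) for every tested member of 9 gene lists (rows); each point is a gene, coloured by the tests that called it. Mesendoderm members all lie right of 0, naive members lie left of 0 except Nanog (0.88), and the calls of the Nodal and Wnt lists are limma-trend calls.

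Several genes called higher are known from antigen processing or as interferon-induced; they were grouped so after the calls were seen, and the grouping has no test of its own. Tapbp encodes tapasin, which loads peptides onto MHC class I molecules. It was detected in all 34 expressing cells at 7.78 to 874 CPM with a median of 289, and in 19 of 27 other cells at 0 to 563 CPM with a median of 2.97. limma-trend gave 4.74 ± 0.62 (adjusted p = 7.73e-07) and edgeR 2.69 ± 0.74 (adjusted p = 0.107). The class I heavy chain gene H2-K1 had medians of 129.9 CPM in expressing and 0.296 CPM in other cells (limma-trend 3.38 ± 0.68, adjusted p = 0.00274; edgeR adjusted p = 0.593). Psmb8, an immunoproteasome subunit, was detected in 27 of 34 and 10 of 27 cells (limma-trend 3.89 ± 0.80, adjusted p = 0.00317; edgeR adjusted p = 0.127).

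Tap2, a subunit of the peptide transporter, was detected in 16 of 34 expressing and 3 of 27 other cells and was higher in both tests (edgeR 6.94 ± 1.45, adjusted p = 0.00609; limma-trend adjusted p = 0.0489). The limma-trend call of Tap2 was made in 21 of 61 fits without 1 cell, with an adjusted p of 0.0761 without F06. Erap1, the peptidase that trims antigenic peptides, ranged from 0 over 53.9 to 476 CPM in expressing cells and from 0 over 0 to 131 CPM in other cells. It was higher by 4.75 ± 1.18 in edgeR (adjusted p = 0.0426, called in 23 of 61 fits without 1 cell, and 0.0754 without F01) and by 3.52 ± 0.75 in limma-trend (adjusted p = 0.00637). The proteasome activators Psme1 and Psme2 were detected in all 34 expressing cells and in 24 and 23 of 27 other cells, and limma-trend called both (2.21 ± 0.48, adjusted p = 0.00768; 2.90 ± 0.54, adjusted p = 0.000989). Both lie on chromosome 14, and without the 8 cells of low chromosome 14 share their limma-trend differences were 0.89 and 1.93 (adjusted p = 0.593 and 0.152). H2-K1 and Psme2 have close relatives in the genome, so their counts are uncertain.

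Gbp3 and Gbp2, interferon-induced GTPases that are neighbours on chromosome 3, were higher in both tests. Gbp3 was detected in 24 of 34 expressing and 4 of 27 other cells, with medians of 24.3 CPM and 0 CPM and highest values of 602 CPM and 20.1 CPM. Its edgeR log2 change was 7.19 ± 1.22 (adjusted p = 0.000263, at most 0.000692 without any 1 cell) and its limma-trend difference 4.001 ± 0.68 (adjusted p = 0.000274). Gbp2 had medians of 280 CPM in expressing and 0 CPM in other cells and was detected in 26 of 34 and 9 of 27 cells (edgeR 4.47 ± 1.08, adjusted p = 0.0362, called in 51 of 61 fits without 1 cell; limma-trend 4.75 ± 0.84, adjusted p = 0.000577). The family members share sequence, so reads could have been assigned to the wrong one.

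Isg15, a ubiquitin-like protein made on interferon signalling, was detected in 16 of 34 expressing cells at up to 104 CPM and in 0 of 27 other cells. Pooled over the cells it was at least 405-fold higher in expressing cells, taking 3 counts over all other cells as the limit that a count of 0 allows. Its median in expressing cells was 0 CPM, the cell in A04 held 34.7% of its CPM, and it passed the count filter through expressing cells alone. Both tests called it (edgeR adjusted p = 0.000263, limma-trend adjusted p = 0.0134). Ifi35 and Parp10, both known as interferon-induced, were detected in 10 and 11 of 34 expressing cells against 2 and 2 of 27 other cells. edgeR called both (adjusted p = 0.00609 and 0.000475) and limma-trend neither (adjusted p = 0.170 and 0.125). Parp10 reached at most 1.27 CPM in other cells, so it passed the count filter through expressing cells alone. Without the detection covariate the edgeR change of Ifi35 was 4.99 in place of 7.91 (adjusted p = 0.210). Tap2, Ifi35, Parp10, Erap1, Tapbp, Psmb8, Psme1 and Gbp2 each overlap another gene that was counted. Among genes named in other paragraphs so do Trim67, Mtf2, Tdh and others. No source used here says whether counting used strand, so part of the counts of all these genes may belong to the neighbour.

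**Figure D3:**
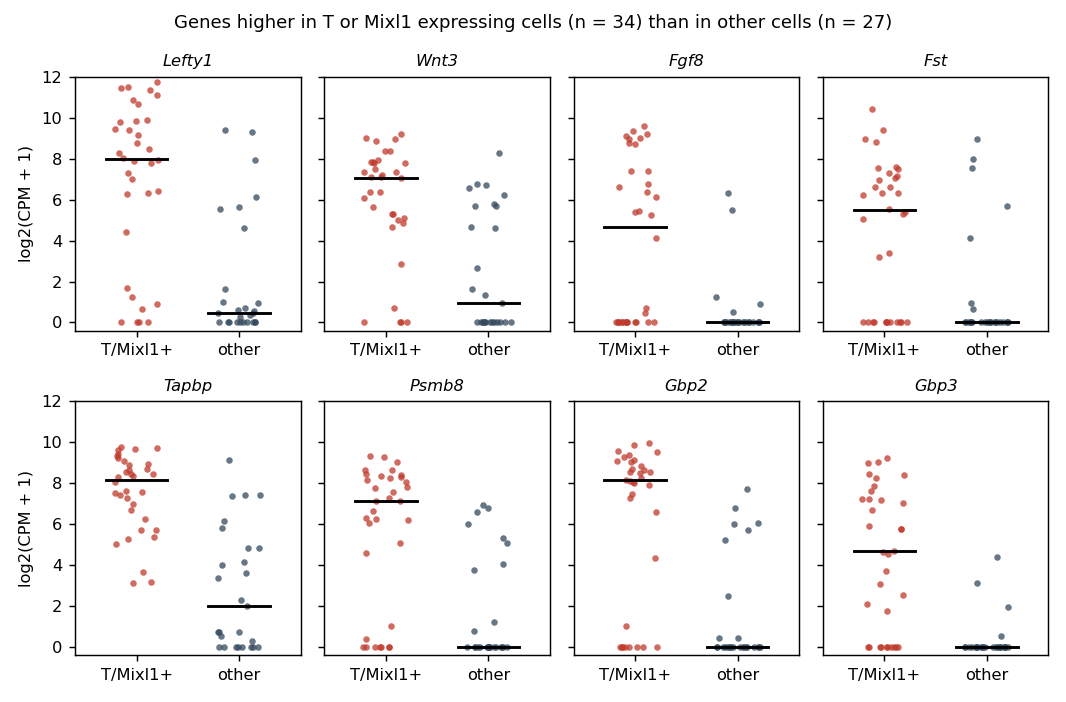
Levels as log2(CPM + 1) (vertical axis) of 8 genes in 34 expressing cells (left of each panel) and 27 other cells (right); each point is a cell and each bar a median. For each gene the median is higher in expressing cells and the sets overlap; Tapbp has reads in every expressing cell.

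The promoters of 4 of these genes are shown because they hold GAAANNGAA, the core letters of the interferon-stimulated response element; the motif was chosen after the genes were seen. Windows of 250 bases before the RefSeq start (GRCm38.p6) were found for 5 of the 9 genes called higher by both tests, and 4 of the 5 hold the letters on either strand, the exception being Trim67. Of the genes called lower by both tests, 12 had a window and 0 held them. The letters are in 7.13% of all 32851 windows. Capitals mark each match, overlapping matches included: 2 in Gbp3 (chr3:142559794-142560043, plus strand), 3 in Isg15 (chr4:156200819-156201068, minus strand), 1 in Gbp2 (chr3:142620413-142620662, plus strand) and 1 in Erap1 (chr13:74639603-74639852, plus strand). They begin 44, 78, 58 and 9 bases before the start. Gbp3 has a second window, which holds 0 matches.
Gbp3: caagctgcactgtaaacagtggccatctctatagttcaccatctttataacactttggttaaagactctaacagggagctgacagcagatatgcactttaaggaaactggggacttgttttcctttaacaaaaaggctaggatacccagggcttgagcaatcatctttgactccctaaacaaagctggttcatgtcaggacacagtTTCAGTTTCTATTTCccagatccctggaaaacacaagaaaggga
Isg15: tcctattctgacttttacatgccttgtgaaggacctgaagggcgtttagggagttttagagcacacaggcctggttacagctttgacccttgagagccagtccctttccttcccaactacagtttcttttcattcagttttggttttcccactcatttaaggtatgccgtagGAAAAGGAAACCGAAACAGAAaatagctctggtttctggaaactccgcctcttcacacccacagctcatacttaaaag
Gbp2: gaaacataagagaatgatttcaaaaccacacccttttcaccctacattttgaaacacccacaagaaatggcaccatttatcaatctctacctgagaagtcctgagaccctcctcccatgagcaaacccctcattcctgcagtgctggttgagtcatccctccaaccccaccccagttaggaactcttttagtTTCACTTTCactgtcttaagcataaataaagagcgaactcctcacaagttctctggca
Erap1: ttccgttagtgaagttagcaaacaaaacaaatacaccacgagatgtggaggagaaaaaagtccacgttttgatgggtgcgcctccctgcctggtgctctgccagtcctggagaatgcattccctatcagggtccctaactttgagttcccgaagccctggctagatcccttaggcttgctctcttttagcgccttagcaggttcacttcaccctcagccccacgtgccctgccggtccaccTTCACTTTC

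Other genes were called higher with no shared role in the lists used. Trim67, a RING-type ubiquitin ligase gene, was detected in 26 of 34 expressing and 7 of 27 other cells, with medians of 118 CPM and 0 CPM (edgeR 4.31 ± 1.07, adjusted p = 0.0436, called in 15 of 61 fits without 1 cell; limma-trend 4.56 ± 0.72, adjusted p = 9.49e-05). Pkia, an inhibitor of protein kinase A, was called by both tests (edgeR adjusted p = 0.0220, limma-trend adjusted p = 0.0181), with reads in 21 of 34 and 4 of 27 cells. Its edgeR log2 change of 6.04 became 2.98 without the detection covariate (adjusted p = 0.759). Tmem246 was found in 16 of 34 and 1 of 27 cells and was also called by both (edgeR 7.43 ± 1.44, adjusted p = 0.00200; limma-trend adjusted p = 0.0317). Slco5a1, Pdgfrl, Hecw2 and Dlg5 passed edgeR (adjusted p = 0.0322, 0.0440, 0.000760 and 0.00739) and not limma-trend (adjusted p = 0.110, 0.0617, 0.237 and 0.260). The edgeR call of Pdgfrl was made in 24 of 61 fits without 1 cell (adjusted p = 0.0869 without B05) and that of Slco5a1 in 54 (0.0547 without B05). Without the detection covariate the edgeR log2 changes of Slco5a1, Pdgfrl, Hecw2 and Dlg5 were 2.57, 2.42, 2.88 and 3.48 in place of 4.90, 6.51, 6.53 and 5.46 (adjusted p = 0.931, 1.000, 0.930 and 0.465). Of the 43 edgeR calls, 23 were detected in fewer than 50% of the cells of the set in which they were higher. Tmem246 and Hecw2, with reads in 1 other cell each, passed the count filter mainly through expressing cells.

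Some genes of the naive state were lower in expressing cells. Of 20 listed, 15 were tested, and 4 were called lower by edgeR (Zfp42, Esrrb, Nr5a2 and Manba), 4 by limma-trend (Zfp42, Klf2, Klf4 and Esrrb) and 0 higher by either. Over all 10866 tested genes edgeR called 0.184% lower and limma-trend 0.488% lower. The median edgeR log2 change of the 15 naive genes was -2.92, and 0 of 15 were above 0. A fall of T and Mixl1 along a naive score in these cells was already known when the lists were chosen, so this is no independent result. Zfp42, which encodes Rex1, ranged from 0 over 0.355 to 1312 CPM in expressing cells and from 0 over 31.9 to 1755 CPM in other cells. It was lower, with a log2 change of -4.60 ± 0.98 in edgeR (adjusted p = 0.00739, at most 0.0335 without any 1 cell) and a difference of -3.69 ± 0.80 in limma-trend (adjusted p = 0.00751). Esrrb, an orphan nuclear receptor of the naive network, was detected in 7 of 34 and 11 of 27 cells with a median of 0 CPM in both sets (edgeR -5.65 ± 1.24, adjusted p = 0.0120; limma-trend adjusted p = 0.0458, called in 22 of 61 fits without 1 cell, and 0.0886 without C05). Without the detection covariate the edgeR changes of Zfp42 and Esrrb were -3.35 and -3.38 (adjusted p = 0.270 and 0.532). The edgeR call of Manba (adjusted p = 0.0426) was made in 23 of 61 fits without 1 cell, and its change of -5.48 became -2.84 without the detection covariate (edgeR adjusted p = 0.930).

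The Krüppel-like factors Klf4 and Klf2 were lower in limma-trend (adjusted p = 0.0317 and 0.0236) and did not pass edgeR (adjusted p = 0.374 and 0.499). The limma-trend call of Klf4 was made in 56 of 61 fits without 1 cell (adjusted p = 0.0593 without C02). Without the 9 cells of highest naive score the limma-trend differences of Klf4 and Klf2 were -1.17 and -0.50 (adjusted p = 0.655 and 0.930). Klf4 reached 25.2 CPM in expressing and 274 CPM in other cells. Nr5a2, another nuclear receptor, had 55.97% of its CPM in 1 cell, in well B09, and its edgeR adjusted p of 0.0278 was 0.171 without it. Nanog had medians of 148 CPM in expressing and 65.7 CPM in other cells and was not called (edgeR -0.17 ± 0.77, limma-trend 0.88 ± 0.84). Dppa3 was detected in 4 of 34 and 9 of 27 cells and did not pass (limma-trend adjusted p = 0.140).

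Of 17 tested core pluripotency genes edgeR called 0 (4 with an unadjusted p under 0.05) and limma-trend called 3 lower. Over all 10866 tested genes, 640 had an unadjusted p under 0.05 in edgeR, and limma-trend called 0.488% lower. Tdh, threonine dehydrogenase, had medians of 0 CPM in expressing and 189.7 CPM in other cells (limma-trend -3.67 ± 0.87, adjusted p = 0.0181). It lies on chromosome 14, and without the cells of low chromosome 14 share the difference was -2.64 (adjusted p = 0.502). Rex2 had medians of 1.32 CPM and 30.1 CPM (limma-trend adjusted p = 0.00869), and Rif1, a telomere and replication factor, 826 CPM and 1315 CPM in expressing and other cells (limma-trend adjusted p = 0.0427, called in 35 of 61 fits without 1 cell, and 0.0771 without B09). Pou5f1 differed by 0.02 ± 0.24 in limma-trend and -0.11 ± 0.21 in edgeR, and Sox2 by -0.91 ± 0.59 and -0.83 ± 0.62, neither past the threshold. Dppa5a had medians of 414 CPM in expressing and 3970 CPM in other cells but overlapped widely and did not pass (limma-trend -2.76 ± 1.00, adjusted p = 0.197).

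Several genes outside the lists were lower in expressing cells in both tests. AU018091 was detected in 3 of 34 expressing and 18 of 27 other cells, with medians of 0 CPM and 16.7 CPM (edgeR -7.53 ± 1.17, adjusted p = 0.000107; limma-trend -3.27 ± 0.52, adjusted p = 9.49e-05). Without the detection covariate its edgeR change was -3.68 (adjusted p = 0.317). Pooled over the cells it had 4.63 CPM in expressing and 47.5 CPM in other cells. Its highest value in expressing cells, 149.9 CPM, was in well B10 (T at 32.7 CPM), the cell with the fewest genes detected (5317). Among expressing cells B10 also held the highest values of Zfp42 (1312 CPM), Esrrb (150.6), Mreg (216.1), Morc1 (834.8) and 4930548H24Rik (165.5). Tdrd12, a piRNA pathway gene, was found in 4 of 34 and 15 of 27 cells (edgeR adjusted p = 0.00572), and Morc1, a silencer of transposons in the germline, in 5 of 34 and 14 of 27 cells (edgeR adjusted p = 0.0362, called in 54 of 61 fits without 1 cell, and 0.0886 without C07; -2.70 in place of -5.13 without the detection covariate, adjusted p = 0.959). Kit, the stem cell factor receptor, was detected in 6 of 34 and 15 of 27 cells, at up to 27.7 CPM in expressing and 429 CPM in other cells (edgeR -5.11 ± 1.24, adjusted p = 0.0379, called in 49 of 61 fits without 1 cell). limma-trend called Tdrd12, Morc1 and Kit as well (adjusted p = 0.00379, 0.0236 and 0.00869).

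Mreg, known for melanosome transport, was detected in 15 of 34 and 22 of 27 cells and was lower in both tests (edgeR adjusted p = 0.000146, limma-trend adjusted p = 0.000989). Its edgeR change of -6.03 became -3.76 without the detection covariate (adjusted p = 0.163). Platr20, a long noncoding RNA named for its association with pluripotency, had no read in any expressing cell and was detected in 11 of 27 other cells. Pooled over the cells it was at least 509.7-fold lower in expressing cells, with the limit set as for Isg15. The cell in C05 held 29.3% of the CPM of Platr20, which passed the count filter through the other cells alone. Enox1, on chromosome 14, was detected in 1 of 34 and 11 of 27 cells and overlaps the counted gene Gm10132 (edgeR adjusted p = 0.000107; limma-trend adjusted p = 0.0471, called in 17 of 61 fits without 1 cell). Its edgeR change of -9.99 became -5.10 without the detection covariate (adjusted p = 0.0803).

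4930548H24Rik was detected in 5 of 34 expressing and 15 of 27 other cells and was lower in edgeR (-6.84, adjusted p = 0.000215) but not called by limma-trend (adjusted p = 0.0678); without the detection covariate its edgeR change was -1.66 (adjusted p = 1.000). Mtf2 and Stmn1 were called lower by both tests with smaller changes. Mtf2, a Polycomb-like subunit of PRC2 present in every cell, had 61.8 to 1028 CPM in expressing and 144 to 2579 CPM in other cells, with medians of 369.9 and 616.1 (edgeR -1.10 ± 0.24, adjusted p = 0.0133, but 0.0587 without C07; limma-trend -0.97 ± 0.25, adjusted p = 0.0292). Stmn1, a regulator of microtubules, had medians of 23.8 CPM in expressing and 54.01 CPM in other cells (edgeR -1.24 ± 0.30, adjusted p = 0.0379, called in 50 of 61 fits without 1 cell; limma-trend adjusted p = 0.0353). The zinc finger genes Zfp600 and Zfp981, near-identical neighbours on chromosome 4 whose reads may be mixed up, had medians of 8.59 and 6.63 CPM in expressing cells, against 67.9 and 38.2 CPM in other cells. Both tests called both genes (edgeR adjusted p = 0.0400 and 0.0481, limma-trend adjusted p = 0.0252 and 0.0220), with the edgeR calls made in 28 and 14 of 61 fits without 1 cell.

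**Figure D4:**
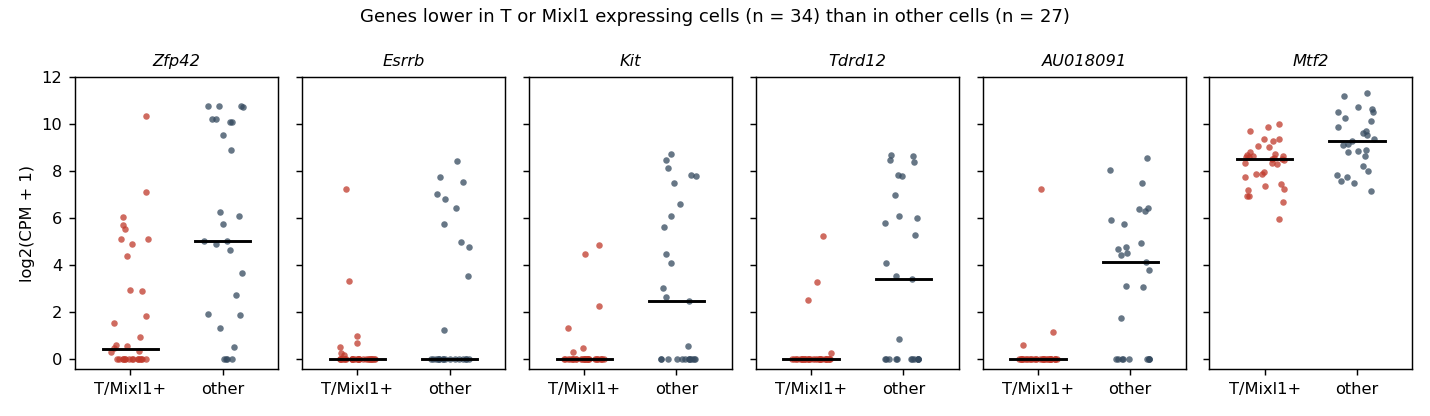
Levels as log2(CPM + 1) (vertical axis) of 6 genes in 34 expressing cells (left of each panel) and 27 other cells (right); each point is a cell and each bar a median. Esrrb has a median of 0 in both sets, Kit, Tdrd12 and AU018091 have a median of 0 in expressing cells alone, and Mtf2 is present in every cell.

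The highest naive scores and little or no T coincided in a subset of cells. A naive score, the mean standardised level of 15 list members scaled to an SD of 1 over the cells, ran from -1.02 over a median of -0.453 to 0.968 in expressing cells and from -0.909 over -0.0045 to 2.70 in other cells. Its largest gap lay between 1.18 and 1.84, and the 9 cells above it were all among the other cells, with T at 0.888 CPM or less. Their Zfp42 ran from 747.5 (H03) to 1755 CPM (C07) and their Esrrb from 1.38 (E01) to 345 CPM (D05). The expressing cell in well B10 (T at 32.7 CPM, score 0.968) lay within both ranges, with Zfp42 at 1312 CPM and Esrrb at 150.6 CPM. Without those 9 cells edgeR called 3 genes, Isg15, Tmem246 and 1 with no symbol, and limma-trend called 7, among them Tapbp (adjusted p = 0.000426), Trim67 (0.0141), Gbp3 (0.0372) and Fzd10 (0.0372). All of these calls were higher in expressing cells, and no gene was called lower by either test. Many genes called lower over all cells were then too rare to be tested and could not be called. Among them were AU018091, Tdrd12, Kit, Esrrb, Nr5a2, Manba, Morc1, Platr20, Enox1 and 4930548H24Rik. Without the 9 cells the limma-trend difference of Zfp42 was -1.56 (adjusted p = 0.728). Those of Mreg, Mtf2, Stmn1, Zfp600 and Zfp981 were -1.26, -0.555, -0.813, -1.63 and -1.80. Their limma-trend adjusted p-values were 0.581, 0.680, 0.649, 0.639 and 0.588. Other limma-trend calls of higher genes ended too, among them Gbp2 at 4.24 (adjusted p = 0.144), Lefty1 at 4.27 (0.239), Fgf8 at 3.25 (0.373), Erap1 at 3.31 (0.328), Psmb8 at 3.15 (0.381) and H2-K1 at 2.62 (0.373), each still higher in expressing cells. With the naive score as a covariate edgeR called 8 genes, 5 higher and 3 lower, and limma-trend called 3 higher, among them Tapbp and Trim67 (adjusted p = 0.00666 each).

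**Figure D5:**
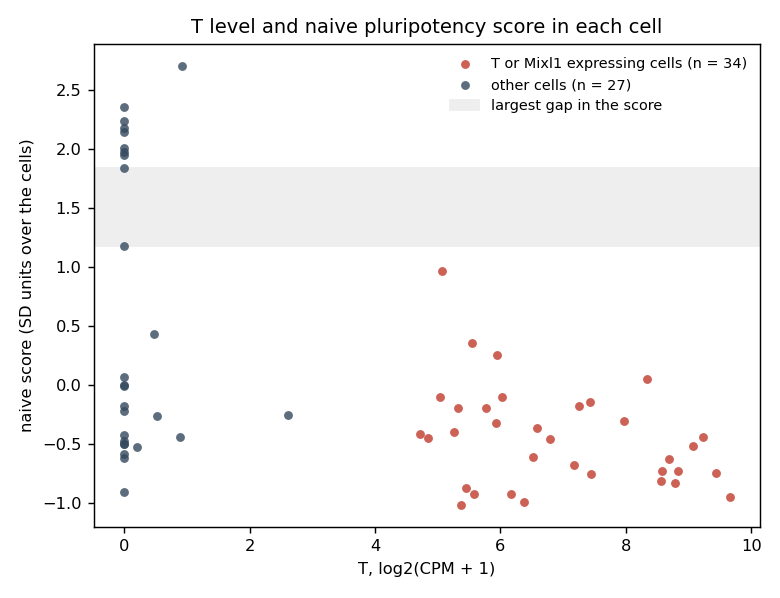
T as log2(CPM + 1) (horizontal axis) against the naive score in SD units (vertical axis) for each of 34 expressing and 27 other cells; each point is a cell and the grey band is the largest gap in the score. The 9 cells above the band are all other cells, and below it both sets span similar scores.

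The 8 other cells of low chromosome 14 share included 6 of the 9 cells above the gap. Without the 8 cells edgeR called 7 genes (5 higher and 2 lower) and limma-trend 8 (7 higher and 1 lower). Tapbp, Trim67, Gbp3 and Fzd10 were again among the higher limma-trend calls (adjusted p = 0.000953, 0.0124, 0.0173 and 0.0252), and AU018091 was the lower one (0.00344). Several genes called lower over all cells were too rare to be tested here, among them Esrrb, Nr5a2, Manba, Morc1, Platr20 and Enox1. Within plate rows A to D edgeR called 8 genes and limma-trend 51. Within rows E to H both called 0, with 169 and 517 genes at an unadjusted p under 0.05.

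The 10 cells with Mixl1 were also set against all 51 others. edgeR then called 0 genes (578 with an unadjusted p under 0.05) and limma-trend 16 (0.147%), 14 higher and 2 lower; these genes are named after their values were seen. Isg15 was higher by 3.30 ± 0.46 (limma-trend, adjusted p = 8.19e-06), with reads in 9 of the 10 cells, against 7 of the 24 cells with T alone. Gbp3, Gbp7, Ifi35 and Erap1 were higher too (limma-trend adjusted p = 0.0192, 0.0246, 0.0246 and 0.0334), as were the ligand gene Wnt5b and the homeobox genes Msx2 and Msx1 (0.0192, 0.0192 and 0.0401). The de novo DNA methyltransferase gene Dnmt3b was lower in the 10 cells than in all 51 others, with a difference of -3.55 ± 0.78 (limma-trend, adjusted p = 0.0275). Its median was 95.3 CPM in the 10 Mixl1 cells and 474 CPM in the 24 cells with T alone, a division that was not tested. Between all 34 expressing and the other 27 cells Dnmt3b did not pass, with medians of 380.1 CPM and 375 CPM (limma-trend adjusted p = 0.732).

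The lists for other states of the cells gave no call. At the shares called over all tested genes, 0.396% in edgeR and 1.08% in limma-trend, lists this short would hold few calls or none. The absence of calls therefore does not show that these states were alike. Neither test called any of 21 formative and primed genes, 12 DNA methylation genes, 26 G2/M genes, 26 S phase genes, 11 mitochondrial genes or 15 stress genes that were tested. edgeR gave an unadjusted p under 0.05 for 1, 1, 0, 0, 0 and 1 of them, against 640 of all 10866 tested genes. Fgf5, a marker of the formative epiblast, was detected in 14 of 34 expressing and 4 of 27 other cells (limma-trend adjusted p = 0.170), and Otx2 in 12 of 34 and 10 of 27 cells (adjusted p = 0.874). Dnmt3l was detected in 12 of 34 and 16 of 27 cells and Tet1 in 32 of 34 and 27 of 27 cells, and neither passed (limma-trend adjusted p = 0.189 and 0.197). The epithelial keratin genes Krt8 and Krt18 had medians of 77.2 and 104 CPM in expressing cells, against 5.16 and 1.11 CPM in other cells, and did not pass (limma-trend adjusted p = 0.455 and 0.596).

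Markers of other cell types were sparse in both sets, and none of their tested members was called by either test. Summed over its list, the level was 275 to 1825 CPM in expressing and 125 to 1581 CPM in other cells for endoderm, where Apoe, Lamb1 and Lamc1 were common and Ttr was at 0 in all cells. For trophectoderm it was 0 to 590 CPM and 0 to 341 CPM in expressing and other cells, with Elf5, Tpbpa and Prl3d1 at 0. The neurectoderm sums were 0.303 to 434 CPM and 0 to 613 CPM, with Sox1, Pax3, Hes5, Dlx2 and Neurog2 at 0. For fibroblasts they were 0 to 484 CPM and 0 to 281 CPM, with Postn and Fap at 0, and for germ and 2-cell-like genes 0 to 669 CPM and 0 to 419 CPM, with Zscan4d and Zfp352 at 0. The tested members numbered 6, 4, 5, 2 and 3 in these lists, and edgeR gave an unadjusted p under 0.05 for 1, 2, 0, 0 and 0 of them. Over all 10866 tested genes it did so for 640.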

How the data were processed

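The authors deposited whole-number counts per gene for 61 serum/LIF cells, in 36300 rows; the 95 rows named as ERCC spike-ins were left out. The reads were processed on GRCm38 with bedtools 2.19.1, SAMtools 0.1.18, GSNAP and DESeq2, per the submitters' processing notes. No source used here gives the counting rule, annotation or strand setting. Their normalized table was not used, because its factor changes from gene to gene within a cell. Symbols were found for 34880 of 36205 identifiers, and loci are from GENCODE on GRCm38. Reads carry no molecular identifiers named in the labels, so limits from counts cover counting error only.

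The 10866 genes kept had 10 or more counts in 10 or more cells. The main test was edgeR 4.0.16 quasi-likelihood with TMM scaling, each cell's fraction of detected genes as covariate and Benjamini-Hochberg adjustment at 0.05 over all tested genes; its SE is the absolute log2 change over the square root of F. limma-trend 3.58.1 on log2(CPM + 1) used the same covariate. On simulated counts edgeR made more false calls than its threshold allows and limma-trend did not, so both are given. The simulation drew each gene independently and set changes only in widely detected genes, so it does not rank the tests for sparse genes. DESeq2 1.42.0 was an alternative. Cell measures were compared by permutation in scipy 1.17.1.

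Named genes were the 12 of largest change per direction among edgeR calls with reads in at least 50% of the cells of the higher set, all tested mesendoderm genes, called members of the other lists (or, where none was called, the 2 of smallest p) and a fixed set of stem cell genes. Others were added after their values were seen: Isg15, Tap2, Ifi35, Parp10, Tmem246, Tapbp, Psmb8, Psme1, Psme2, H2-K1, Enox1, Platr20, Dppa5a, Klf2, Tdh, Cldn7, Hecw2, Dlg5, Tcf7, Lef1, Gbp7, Wnt5b and the rare mesendoderm genes. The members, rule and lists were chosen with earlier results of these data known. Results of 1 gene are not reported here. Alternatives changed scaling, filter, threshold, covariates, test, depth (each cell thinned to 2417702 counts) and the cells used.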

Additional observations from a re-analysis of the deposited data

How the results depend on the processing

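The count of edgeR calls depended on the settings, while no gene that edgeR called and the text names changed direction under any of them; Cldn7, called by limma-trend alone, did. The 43 calls (23 higher and 20 lower) became 39 with DESeq2 size factors, 39 with cells thinned to 1 depth, 39 to 46 with thresholds of 1, 5, 20 and 50 CPM, 51 with the plate row group (A to D, E to H) as a covariate, and 63 with the DESeq2 Wald test, of which 42 were higher. limma-trend called 117 (64 higher and 53 lower) with a pseudocount of 1 and 113 (59 and 54) with 10. Cell cycle scores as covariates gave 65 (39 higher). Without the detection covariate 12 genes were called (6 and 6), with a filter of 50 counts in 15 cells 4 (1 and 3), and without a filter 4661 of 21253 (2604 and 2057). For these counts the cause was not tested. The naive score as a covariate left 8 (5 and 3) in edgeR and 3 (3 and 0) in limma-trend. Without the cell in D07 edgeR called 27 (14 and 13), and leaving out each cell in turn gave 24 to 58 (13 to 34 higher and 8 to 24 lower). Plate rows A to D, with fewer cells, gave 8 (5 and 3) in edgeR and 51 (33 and 18) in limma-trend, and rows E to H 0 and 0 in each. The Mixl1 division gave 0 (0 and 0) in edgeR and 16 (14 and 2) in limma-trend.

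Alternatives chosen after the calls were seen left out cells, and several genes called lower over all cells then became too rare to be tested. Without the cells above the naive gap edgeR called 3 (3 higher and 0 lower) and limma-trend 7 (7 and 0). Without the cells of low chromosome 14 share they called 7 (5 and 2) and 8 (7 and 1). The grouping by interferon and antigen genes, the limma-trend fits on subsets and the named additions were chosen in the same way.

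Genes that no edgeR test called changed sign in places, in log2 units. With the naive score as a covariate these were Sp8 (-2.34), Fgf4 (0.79), mt-Nd1 (0.090), Hes1 (-0.54), Nanos3 (0.74), Sycp3 (-0.057), Sox2 (0.14) and Otx2 (-0.60). The same covariate turned Dnmt3a (0.007), Krt8 (-0.57), Krt18 (-1.29), Cdh1 (-0.19), Vim (-0.084), Dusp6 (-0.14), Id1 (-0.77) and Cldn7 (-0.17). The Mixl1 division turned Sp8 (-0.066), Mmp14 (-0.92), Gins2 (-0.11), Fbln1 (1.53), Nanos3 (0.82), Sycp3 (-1.23), Dppa3 (0.016), Otx2 (-3.36), Cdh1 (-0.13) and Tcf7 (-0.13). Leaving out the cells above the naive gap turned Sp8 (-0.34), Nanos3 (1.22), Nanog (1.41), Otx2 (-0.095), Krt18 (-0.15), Cdh1 (-0.070) and Id1 (-0.12). Leaving out the cells of low chromosome 14 share turned Sp8 (-0.32), mt-Nd1 (0.023), Nanos3 (0.86), Otx2 (-0.039), Dnmt3a (0.055), Krt18 (-0.15) and Cdh1 (-0.003). Rows E to H alone turned Gins2 (-0.33), mt-Nd1 (0.032), Nanog (0.50), Dnmt3b (0.033), Fn1 (-0.058), Id1 (-0.67) and Lef1 (-0.58), and rows A to D Dnmt3a (0.79). limma-trend with a pseudocount of 1 turned Sycp3 (-0.12), Pou5f1 (0.015), Nanog (0.88), Otx2 (-0.42), Dnmt3a (0.42), Vim (-0.11) and Lef1 (-0.14). With a pseudocount of 10 it turned Sycp3 (-0.019), Pou5f1 (0.011), Nanog (0.40), Otx2 (-0.21) and Dnmt3a (0.22). Cell cycle scores turned Sycp3 (-0.079), Otx2 (-0.045) and Lef1 (-1.72). The plate row group turned Otx2 (-1.03), no detection covariate Sp8 (-0.011), a threshold of 50 CPM Sp8 (-0.026) and Otx2 (-1.17), and thresholds of 1 and 5 CPM Dnmt3b (0.054 and 0.094). At 5 CPM the difference in genes detected, expressing minus other cells, was 5.97 in place of -25.2. For these genes the cause was not tested.

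No paired analysis was possible because the cells carry plate wells and no replicate numbers shared between the sets. Many genes had no read in most cells, and at this depth a count of 0 does not show that a transcript is absent.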
